A study of Neurospora crassa with 112 samples.

Results

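The genes described here encode the 7 chitin synthases of *Neurospora crassa*, *chs-1* to *chs-7*, and FKS-1, the catalytic subunit of its β-1,3-glucan synthase. They were taken from the expression table by locus (NCU03611, NCU05239, NCU04251, NCU09324, NCU04352, NCU05268 and NCU04350 for *chs-1* to *chs-7*, and NCU06871 for *fks-1*), and make up 8 of its 9733 genes. The table holds mycelial, polyadenylated RNA of 112 wild or laboratory strains, each grown once, for 16 h, on Bird minimal medium covered with cellophane. It gives RPKM, reads scaled by the coding length of the gene and by the library total, so that levels of different genes can be set side by side. In 4 pairs of columns 87.1% to 89.5% of the values were identical, against 0% in any other pair, so each pair was averaged and counted as 1 library. By strain name, 72 of the libraries were of JW strains and 36 of D strains or of strains labelled by their Fungal Genetics Stock Center (FGSC) number (hereafter D_FGSC, which includes the laboratory strain FGSC 2489). The series in the strain name is the only grouping that the labels give, and all strains were untreated and of 1 culture each, so that strain and culture cannot be told apart.

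The hyphal wall is built at the growing tip. Chitin synthases are membrane proteins that extrude chains of N-acetylglucosamine, and filamentous fungi carry several classes of them, some with a myosin-like domain at the amino terminus. FKS-1 makes β-1,3-glucan, the main wall polymer. In *N. crassa* the 7 chitin synthases belong to class III (*chs-1*), II (*chs-2*), I (*chs-3*), IV (*chs-4*), V (*chs-5*), VI (*chs-6*) and VII (*chs-7*), and those of classes V and VII have the myosin-like domain.

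Library totals, recovered as whole reads from the RPKM values, ran from 8366944 to 29804014 in JW libraries (median 19835136) and from 4174767 to 30748165 in D_FGSC libraries (median 12258870). The actin gene *act* lay between 1022 and 2557 RPKM, with a median of 2010.1 RPKM, and the β-tubulin gene *bml* between 755 and 1299 RPKM, with a median of 1037 RPKM. Transcripts of conidiation, the formation of asexual spores, were also present. The hydrophobin gene *eas* had a lowest value of 35.7 RPKM, a median of 2753 RPKM and a highest value of 95463 RPKM, and *con-6*, *con-8*, *con-10* and *fl* were above 0 in every library. The sum of these 5 markers ran from 84.9 to 21241 RPKM in JW libraries (median 2354) and from 184 to 124550.5 RPKM in D_FGSC libraries (median 4552).

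To ask how much each synthase transcript contributed to the mycelium, levels were first compared within libraries. *fks-1* was the highest of the 8 genes, with a mean of 129 ± 27.97 RPKM (SD over the 72 JW and 36 D_FGSC libraries), a lowest value of 76.3 RPKM in D116, a median of 125 RPKM and a highest value of 251 RPKM in JW234. *chs-1* was the highest of the chitin synthase genes in every library, at 99.5 ± 18.5 RPKM, between 57.2 RPKM in JW262 and 149 RPKM in JW224, with a median of 95.9 RPKM. 4 chitin synthase genes followed at similar levels. *chs-7* had a mean of 44.6 ± 9.85 RPKM, a median of 42.8 RPKM and a range of 26.02 to 78.5 RPKM. *chs-5*, the other gene with a myosin-like domain, had a mean of 37.6 ± 10.49 RPKM, a median of 34.8 RPKM and a range of 17.3 to 79.3 RPKM. *chs-3* had a mean of 34.7 ± 8.10 RPKM, a median of 34.7 RPKM and a range of 18.6 to 61.4 RPKM. The lowest of these 4 was *chs-4*, with a mean of 30.1 ± 5.85 RPKM, a median of 29.6 RPKM and a range of 20.1 to 57.01 RPKM. A single library, FGSC 4457, set the top of the *chs-4* range, since the next highest, JW10, had 43.2 RPKM.

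The remaining pair was expressed at a much lower level. *chs-2* had a mean of 3.10 ± 1.45 RPKM and ranged from 0.431 RPKM in D116, where it rested on 8 reads, to 8.87 RPKM in FGSC 4459, with a median of 2.89 RPKM. *chs-6* had a mean of 1.05 ± 0.833 RPKM, with a lowest value of 0.247 RPKM (6 reads) in FGSC 4483, a median of 0.910 RPKM and a highest value of 5.90 RPKM (416 reads) in FGSC 4469. Reads of both genes were found in every library. A mean like that of *chs-6* exceeded those of 18.3% of the 9733 genes, that of *chs-2* exceeded 26.1%, and those of the 6 others exceeded 63.96% (*chs-4*) to 87.4% (*fks-1*).

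**Figure D1:**
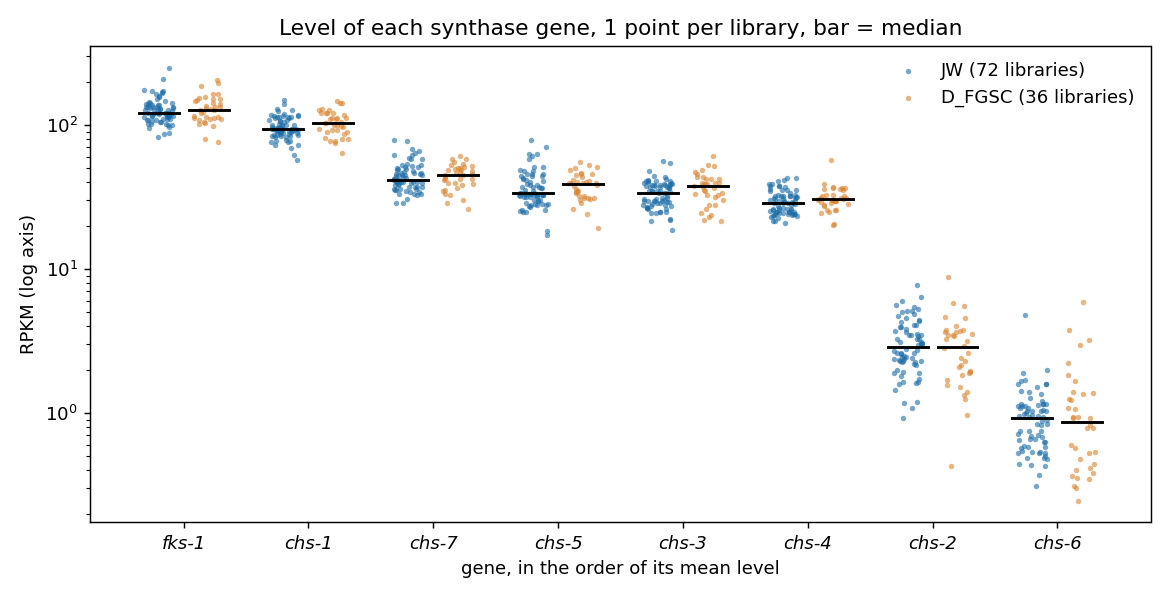
Level of each of the 8 synthase genes in RPKM on a log axis, in the order of the mean, with 1 point for each of the 72 JW libraries (left, blue) and 36 D_FGSC libraries (right, orange) and a bar at the median. Points of both series overlap for every gene, and *chs-2* and *chs-6* lie apart from the others, with medians of 2.89 and 0.910 RPKM over all libraries.

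The order of the levels was the same by the mean of each series and by the median over all libraries. By the median within JW libraries *chs-3* (33.6 RPKM) and *chs-5* (33.6 RPKM) changed places, with nearly equal values. Neighbours in this order were compared within libraries by a two-sided permutation test that flips the sign of the difference in log2(RPKM + 1) (100000 resamples, adjusted over 7 pairs by Benjamini-Hochberg). *fks-1* was above *chs-1* in 72 of 72 JW and 31 of 36 D_FGSC libraries. *chs-7* was above *chs-5* in 67 JW and 34 D_FGSC libraries, with a mean difference of 0.26 ± 0.15 (SD, log2). The step between *chs-5* and *chs-3* was the least certain of the 7. *chs-5* was the higher in 42 of 72 JW and 18 of 36 D_FGSC libraries only, and the mean difference of 0.10 was smaller than its SD of 0.41 between libraries (permutation test, adjusted p = 0.0128). *chs-3* was above *chs-4* in 53 JW and 27 D_FGSC libraries and *chs-2* above *chs-6* in 69 and 31, while *chs-1* was above *chs-7* and *chs-4* above *chs-2* in every library. Apart from *chs-5* and *chs-3*, each step had a permutation p of 1e-05, the smallest that 100000 resamples can give.

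Read as a share of the summed RPKM of the 7 chitin synthase genes, *chs-1* held 39.7% ± 2.87 (SD over all libraries), *chs-7* 17.7% ± 1.41, *chs-5* 14.8% ± 1.92, *chs-3* 13.97% ± 2.65 and *chs-4* 12.1% ± 1.28. *chs-2* held 1.23% ± 0.520 and *chs-6* 0.418% ± 0.301. The share of *chs-3* had the widest relative range among the 5 abundant genes, from 7.07% to 22.6%, whereas that of *chs-7* stayed between 15.04% and 21.3%. The summed level itself was 246 ± 44.9 RPKM in JW libraries and 259.5 ± 47.4 RPKM in D_FGSC libraries, with the lowest sum in JW262 (160.3 RPKM) and the highest in JW234 (389 RPKM). The ratio of *fks-1* to this sum had a mean of 0.518 ± 0.0689 and ranged from 0.371 to 0.816.

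How far each gene varied between strains was described by the SD of log2(RPKM + 1). The least variable of the 8 were *chs-4* (SD 0.26), *chs-1* (0.27), *fks-1* (0.29) and *chs-7* (0.30), which is less than the median SD of 0.38 over the 7985 genes that averaged 1 RPKM or more. The SD of *chs-3* was 0.33 and that of *chs-5* 0.37. *chs-6* (0.44) and *chs-2* (0.50) lay above that median. Sampling of reads accounts for 6.48% of the variance of *chs-6* and 2.69% of that of *chs-2* if reads are drawn independently, and for 0.233% to 1.85% in the other genes, so the spread of both low genes was larger than their counting error.

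The 2 strain series were then compared across all genes with limma on log2(RPKM + 1). Of 7985 genes tested, 179 (2.24%) passed an adjusted p of 0.05, and none of the 8 synthase genes did, in this fit or with limma's voom on the recovered reads. None had an unadjusted p under 0.05 either, where 18.9% of all genes did. The largest differences were those of *chs-3*, the class I gene, and *chs-1*. *chs-3* had a lowest, median and highest value of 18.6, 33.6 and 56.4 RPKM in JW libraries, against 21.5, 37.5 and 61.4 RPKM in D_FGSC libraries, and its difference (JW minus D_FGSC) was -0.12 ± 0.066 (SE, log2, limma adjusted p = 0.314). *chs-1* had 57.2, 94.2 and 149 RPKM in JW libraries, against 64.2, 103 and 148 RPKM in D_FGSC libraries, a difference of -0.10 ± 0.054 (SE, limma adjusted p = 0.276). In both genes the ranges of the series overlapped over most of their width.

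For the other genes the differences were -0.073 (*chs-4*), -0.057 (*chs-5*), -0.055 (*chs-6*), -0.035 (*fks-1*), 0.0058 (*chs-7*) and 0.087 (*chs-2*), with adjusted p-values of 0.468 to 0.969 in limma. The 95% intervals of the 6 abundant genes all lay within -0.25 and 0.13 on the log2 scale, while that of *chs-2* ran from -0.11 to 0.29. The median difference of the 8 genes was -0.056, against -0.0030 over all genes tested. Depth differed between the series, and over all libraries *chs-1* and *chs-3* were also the 2 genes that passed a test against the library total. Their Pearson r with the log2 total was -0.33 and -0.29 (Spearman rho -0.36 and -0.25, adjusted permutation p = 0.00432 and 0.0121 over 8 genes, and r = -0.40 and -0.30 once the 2 libraries most distant from the median total were left out). *chs-5*, *chs-7* and *chs-4* had r of -0.16, -0.15 and -0.099, which did not pass. The share of all genes that pass this test was not determined. Within the series *chs-1* had r = -0.41 in JW and -0.16 in D_FGSC libraries, and *chs-3* had r = -0.24 in JW and -0.25 in D_FGSC libraries. After adjustment *chs-1* passed in JW libraries only (adjusted permutation p = 0.00248) and *chs-3* in neither series (0.0750 in JW and 0.364 in D_FGSC libraries), while in JW libraries *chs-2* fell with the total as well (r = -0.30, adjusted permutation p = 0.0449). With the log2 total as a covariate in limma, the series differences of *chs-1* and *chs-3* were -0.039 and -0.051, smaller in size than without it. Those of *chs-4* (-0.061) and *chs-5* (-0.0090) were smaller as well. Those of *chs-2* (0.093), *chs-6* (-0.082), *chs-7* (0.049) and *fks-1* (-0.061) were larger in size. The part of depth in the series differences was not tested.

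**Figure D2:**
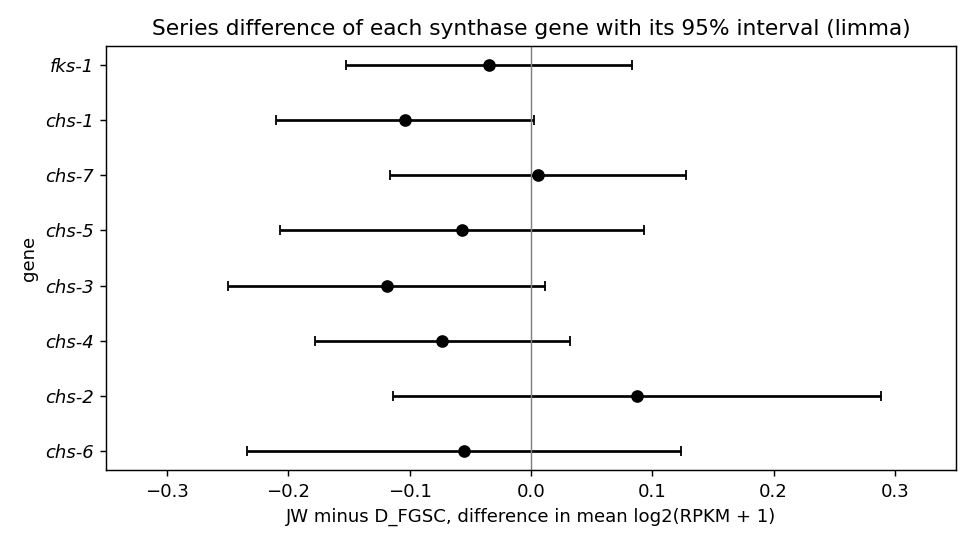
Difference in mean log2(RPKM + 1), JW minus D_FGSC (72 and 36 libraries), of each synthase gene on the horizontal axis, with its 95% interval from limma. All 8 intervals include 0, and the largest differences are those of *chs-3* (-0.12) and *chs-1* (-0.10).

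The strongest pattern among the 8 genes was that some of them varied together. *chs-5* and *chs-7*, the genes of classes V and VII, had a Pearson r of 0.92 over all libraries (Spearman rho 0.90), which was 0.92 in JW libraries and 0.92 in D_FGSC libraries, and 0.91 once the 2 libraries most distant from the median of *chs-5* were left out. Each was the gene most correlated with the other among the 5889 other genes that averaged 10 RPKM or more. In JW262, with the least *chs-5* of all libraries, *chs-5* had 17.3 RPKM and *chs-7* had 28.8 RPKM. In JW234 *chs-5* had 79.3 RPKM and *chs-7* had 77.1 RPKM, and in JW224 they had 70.3 and 78.5 RPKM. Across all libraries the ratio of the 2 genes had an SD of 0.15 on the log2 scale, the lowest of the 28 pairs.

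The group also took in *chs-4*, *chs-1* and *fks-1*. *chs-7* had r = 0.83 with *chs-4*, 0.79 with *chs-1* and 0.78 with *fks-1*, and the 10 pairs among these 5 genes ran from 0.65 to 0.92, with a median of 0.77. The 5 genes were grouped after these correlations were seen. Counts of passing pairs among them thus describe the group and do not test it. All 10 pairs passed a permutation test adjusted over the 28 pairs (adjusted p = 2.2e-05, from the smallest p of 1e-05 that 100000 resamples can give) and also within each series, where their medians were 0.80 in JW and 0.72 in D_FGSC libraries. The test asks only whether r differs from 0, and libraries shared much else: the central 90% of the 5889 genes ran from -0.45 to 0.61 in their r with *chs-7*. Against that range the other genes of the group ranked 1 (*chs-5*), 4 (*chs-4*), 13 (*chs-1*) and 20 (*fks-1*) by r with *chs-7*, and *chs-3* ranked 1316. By r with *chs-1* the ranks were lower, at 28 (*chs-7*), 46 (*chs-5*), 229 (*chs-4*) and 283 (*fks-1*). The 95th percentile of r with *chs-1* was 0.65. For *chs-4* the 2 most correlated genes were *chs-7* and *chs-5*, and for *fks-1* the most correlated was *chs-7*.

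Several libraries lay at the extremes of most of these 5 genes. In JW234 *fks-1* was at 251 RPKM, *chs-5* at 79.3 RPKM and *chs-4* at 43.1 RPKM, and in FGSC 4483 the same genes had 80.2, 19.4 and 20.6 RPKM. JW70 was a further high library, with 139 RPKM of *chs-1* and 210.3 RPKM of *fks-1*. The extremes of single genes could lie elsewhere, since FGSC 4457 had the most *chs-4* and D116 the least *fks-1*. By the mean of the standardized levels of the 5 genes, JW262, FGSC 4483 and JW252 were the 3 lowest libraries and JW234, JW224 and JW70 the 3 highest. The sum of the conidiation markers was 84.9, 704 and 9652 RPKM in these low libraries and 943, 1732 and 130.2 RPKM in these high ones. The 3 high libraries thus lay below the median sum of 3061 RPKM over all libraries, as did 2 of the 3 low ones. The 3 low libraries were also those with the 3 lowest values of a long-gene score described below (-2.49, -2.44 and -2.51, against -2.10, -1.93 and -1.85 in the 3 high ones, for which 25, 59 and 84 libraries had a lower score). Without the 3 low libraries the 10 pairs still passed, with r of 0.62 to 0.91 and a median of 0.74.

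**Figure D3:**
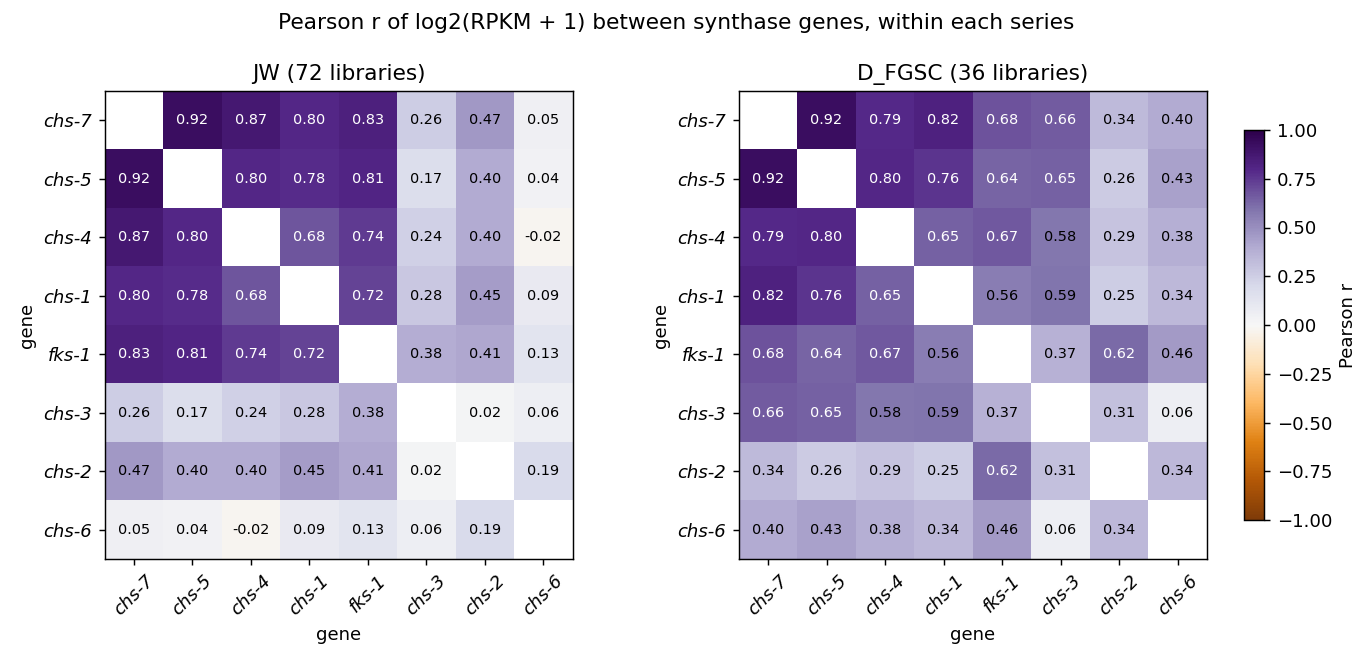
Pearson r of log2(RPKM + 1) between each pair of synthase genes, in the 72 JW libraries (left) and the 36 D_FGSC libraries (right), with genes on both axes and colour from orange (-1) to purple (1). In both panels the square of *chs-7*, *chs-5*, *chs-4*, *chs-1* and *fks-1* is dark, and the row of *chs-3* is paler in JW than in D_FGSC libraries.

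*chs-3*, the class I gene, had lower r with this group than its genes had with each other. Over the 5889 other genes, r with *chs-3* had a 95th percentile of 0.35. By r with *chs-3*, *chs-1* ranked 57, *chs-7* 124, *fks-1* 140, *chs-4* 160 and *chs-5* 435 among these genes. The r of *chs-3* with the 5 genes was 0.32 to 0.42 (adjusted permutation p of 2.2e-05 to 0.000924 over the 28 pairs). In JW libraries these values were 0.17 to 0.38, and 3 of 5 passed, while in D_FGSC libraries they were 0.37 to 0.66 and all 5 passed. The difference between the series was not tested. In JW224, the highest library for *chs-7* at 78.5 RPKM, *chs-3* had 31.4 RPKM, below its median. In JW234 and JW70, next highest for *chs-7* at 77.1 and 68.8 RPKM, *chs-3* had 54.2 and 56.4 RPKM, near the top of its range. *chs-2* had its highest r with *fks-1* (0.49, and 0.41 in JW and 0.62 in D_FGSC libraries), and *chs-6* had no r above 0.29 over all libraries. In D_FGSC libraries *chs-6* had r = 0.46 with *fks-1*, 0.43 with *chs-5*, 0.40 with *chs-7* and 0.38 with *chs-4*, which passed (adjusted permutation p of 0.00931 to 0.0339), whereas in JW libraries these values were -0.023 to 0.13 and did not. The 13 pairs with *chs-2* or *chs-6* had a median r of 0.25, and 9 passed the test. Of these, *chs-1* with *chs-6* and *chs-6* with *chs-7* did not pass by rank (adjusted permutation p of rho = 0.0882 and 0.0578).

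**Figure D4:**
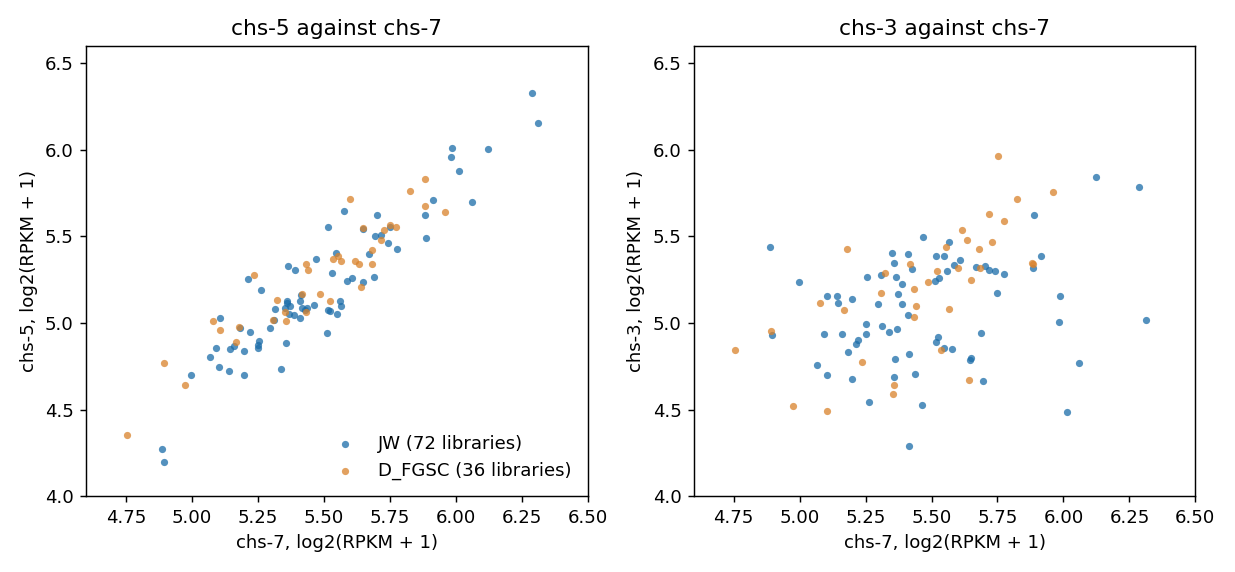
Level of *chs-5* (left) and *chs-3* (right) against that of *chs-7*, all in log2(RPKM + 1), with 1 point for each JW (blue) or D_FGSC (orange) library. *chs-5* follows *chs-7* along a narrow line (r = 0.92), and *chs-3* is spread widely (r = 0.39).

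The size of these correlations depended on the scaling. When each library was centred on its median log2 value, the median r of the 28 pairs was 0.16 in place of 0.39, and 12 pairs passed in place of 24. The 10 pairs of the group all passed again, with a median of 0.64, and *chs-5* and *chs-7* kept an r of 0.90. For *chs-3*, r with the 5 genes was 0.12 to 0.21 on this scale and 0 of 5 pairs passed. With quantile normalization 1 of 5 passed and the 10 pairs of the group had a median of 0.72.

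The r of the members with other genes also differed by the coding length of those genes. Coding lengths were 5868 bp for *fks-1*, 5460.0 bp for *chs-7*, 5397 bp for *chs-5*, 4116 bp for *chs-2*, 3708 bp for *chs-4*, 2754 bp for *chs-1*, 2700.0 bp for *chs-6* and 2667 bp for *chs-3*. Genes over 4000 bp had a median r of 0.53 with *chs-7*, and those up to 500 bp a median of -0.10, whereas for *chs-3* these medians were 0.22 and -0.020. Among the 100 genes most correlated with *chs-7* the median coding length was 2806.5 bp, against 1314 bp over all 5889 genes. A long-gene score, the mean log2 value of 218 genes of at least 4000 bp minus that of 1941 genes of up to 1000 bp, had r = 0.70 with *chs-5*, 0.66 with *chs-7*, 0.64 with *chs-1*, 0.56 with *chs-4* and 0.42 with *fks-1*, but 0.15 with *chs-3* and 0.090 with the long gene *chs-2*, and 0.18 with *chs-6*. The first 5 of these passed a permutation test adjusted over 8 genes (rho 0.48 to 0.70), also in JW libraries alone, where their r was 0.47 to 0.72, while in D_FGSC libraries r was 0.33 to 0.65, *fks-1* did not pass and *chs-6* did (r = 0.37). With the 2 libraries of the most extreme score left out, the 5 values were 0.41 to 0.66, and without JW262, FGSC 4483 and JW252, the 3 lowest by the score and by the 5 genes, they were 0.34 to 0.63. The score was chosen after the data were seen. It is built from other genes of the same libraries, and the share of all genes that pass against it was not determined. After the score was regressed out, the 10 pairs ran from 0.49 to 0.85, with a median of 0.66, and all 10 passed, and *chs-5* and *chs-7* had r = 0.85. The part of RNA quality in the score was not tested.

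**Figure D5:**
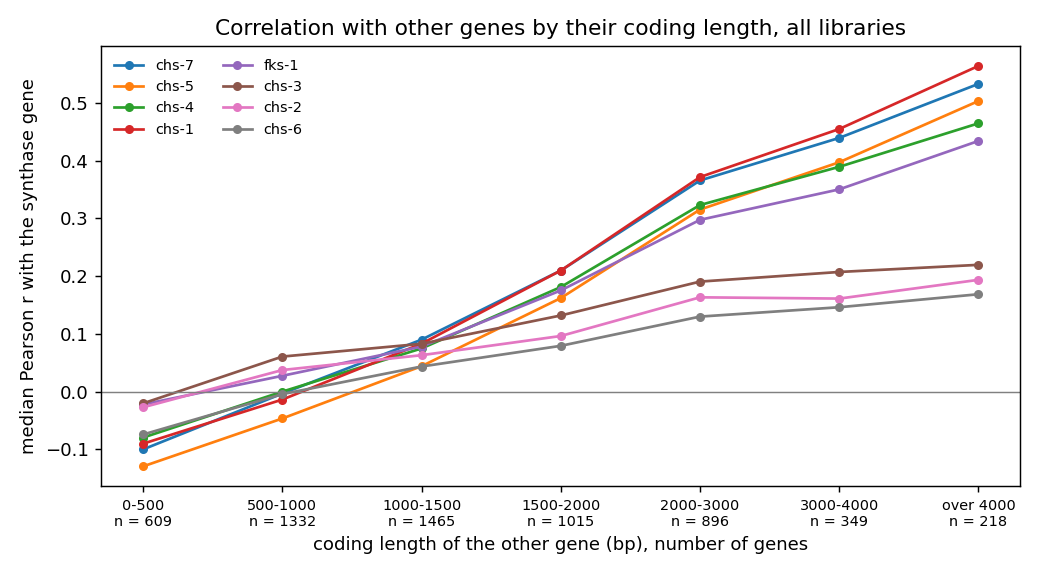
Median Pearson r over all libraries between each synthase gene and the other genes that averaged 10 RPKM or more, in 7 bins of coding length (horizontal axis, bp, with the number of genes). The lines of *chs-7*, *chs-5*, *chs-4*, *chs-1* and *fks-1* climb most, for *chs-7* to a median of 0.53 above 4000 bp, and those of *chs-3*, *chs-2* and *chs-6* least.

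The 3 genes whose pattern was most like that of each member had coding lengths of 1017 to 5847 bp. The closest to *chs-1* was *stt4*, whose yeast namesake encodes a phosphatidylinositol 4-kinase (r = 0.89, and 0.87 in JW and 0.91 in D_FGSC libraries), followed by NCU11228 (0.86) and NCU08023 (0.84). After *chs-7*, *chs-5* was closest to NCU06483 (0.82) and *stt4* (0.81), and *chs-7*, after *chs-5*, to NCU06181 (0.84) and NCU06483 (0.84). *chs-4* had NCU06999 (0.76) after *chs-7* and *chs-5*, and *fks-1* had, after *chs-7*, NCU05360 (0.76) and *dap-1* (0.75). The maxima of the weakly correlated genes were lower, at 0.60 for *chs-2* (*stk-4*), 0.49 for *chs-3* (NCU09288) and 0.41 for *chs-6* (NCU08891). Each value is the highest among 5889 or 5890 genes and is given as a description, since genes are not independent replicates.

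By the NC12 annotation of RefSeq, *chs-5* and *chs-7* lie on the same chromosome with a single gene, NCU04351, between them. NCU04351 was nearly silent, with a lowest value of 0 RPKM, a median of 0.129 RPKM and a highest of 1.20 RPKM, and had r = 0.24 with *chs-5* and 0.27 with *chs-7*. The genes on the outer sides, NCU11050 beside *chs-5* (r = 0.11) and NCU04348 beside *chs-7* (r = 0.059), did not follow them. Among the nearest genes with values beside the other members, NCU03613 and NCU03610 on both sides of *chs-1* had r = 0.61 and 0.56, and NCU09325 beside *chs-4* had 0.61. On the other side of *chs-4*, NCU09323, at a median of 0 RPKM, had r = 0.16. The neighbours of *chs-3* had r = 0.35 (NCU04252) and 0.055 (NCU04249), those of *chs-2* had -0.32 (*cys-4*) and -0.045 (NCU05240), and those of *chs-6* had -0.10 (*hsp88*) and 0.052 (NCU05267). Beside *fks-1*, NCU06872 had r = 0.41 at a median of 0 RPKM and NCU06870 had -0.014.

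Genes that act with the synthases were examined in the same way. All 7 genes described of glucan synthase regulation and wall integrity were positively correlated with *fks-1*, with r of 0.42 (*gs-1*, *cot-2* in RefSeq, which is needed for glucan synthase activity) to 0.61 (*rgf1*). Of the 5889 genes, 65.7% had an r above 0 with *fks-1* and 15.5% one at least as high as that of *gs-1*, and genes over 4000 bp had a median r of 0.43 with it. The coding lengths of the 7 genes were 603 to 5337 bp, and the part of length in their r was not tested. With *chs-7* they had r of 0.47 (*wsc-1*, a wall stress sensor) to 0.71 (*rgf1*), where 14.9% of the 5889 genes reached the value of *wsc-1*. *gs-1* had r = 0.72 with *chs-1*, with which 162 of the 5889 genes had an r above 0.7. With *chs-3* the 7 genes had r of 0.13 to 0.31. The 6 genes of polarized growth had r of 0.19 to 0.75 with *chs-1*, the highest being that of the myosin gene *myo2* (7257 bp). Of the 5889 genes, 44.5% had an r with *chs-1* at least as high as the lowest of these 6. Genes over 4000 bp had a median r of 0.56 with *chs-1*. The 18 remodelling enzymes (glucanosyltransferases, chitinases and other glycosyl hydrolases) had a median r of 0.34 with *fks-1* and the 19 wall proteins also 0.34, against 0.14 over the 5889 genes. The sets are not alike, since some listed genes, such as *gel-1* and *ncw-5*, averaged less than 10 RPKM and are not among the 5889.

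Between the series these lists also showed few calls, which are to be read against the 2.24% of all genes that passed in limma and the 18.9% with an unadjusted p under 0.05. In limma 0 of 7 regulators passed (2 at an unadjusted p under 0.05, 0 in voom), with a median difference of -0.026. The smallest p was that of *mek-1*, the MAP kinase kinase of the wall integrity cascade, at 97.4 ± 23.9 RPKM in JW and 85.8 ± 15.9 RPKM in D_FGSC libraries (SD, n = 72 and 36, limma adjusted p = 0.122). 0 of 18 remodelling enzymes passed (5 at an unadjusted p under 0.05, 0 in voom), with a median of 0.037, and 0 of 6 genes of polarized growth (0 unadjusted, 0 in voom), with a median of -0.023. The chitinase-family gene *gh18-3* came closest, with 23.2 ± 24.2 RPKM in JW and 12.2 ± 14.2 RPKM in D_FGSC libraries (difference 0.79 ± 0.25 SE, limma adjusted p = 0.0597). Of 19 cell wall proteins 1 passed (also 1 in voom, and 3 at an unadjusted p under 0.05), *acw-6*, an anchored wall protein, which was lower in JW libraries at 217 ± 107.6 RPKM, against 331 ± 318 RPKM in D_FGSC libraries (difference -0.48 ± 0.14 SE, limma adjusted p = 0.0364).

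Since the conidiation markers differed between libraries, each member was set against their sum, of which *eas* made up a median of 91.2%. Over all libraries 6 of 8 genes passed by Pearson's r (adjusted over 8 genes), with r of 0.35 for *chs-2* (rho 0.29), 0.32 for *chs-1* (0.30), 0.27 for *fks-1* (0.24), 0.26 for *chs-4* (0.19), 0.23 for *chs-3* (0.26) and 0.20 for *chs-6* (0.12), and with adjusted permutation p of 0.00216 to 0.0455. By rank 4 passed, without *chs-4* (adjusted permutation p of rho = 0.0763) and *chs-6* (0.227). *chs-5* (0.082) and *chs-7* (0.12) did not pass. The share of all genes that pass the same test was not determined, so these counts cannot be read as particular to the synthases. With the 2 libraries most distant from the median sum left out, the r of *chs-4* was 0.16 and that of *fks-1* 0.18. Within the JW series 0 of 8 genes passed with the sum (1 at an unadjusted p under 0.05) and r ran from -0.014 to 0.26. In the 36 D_FGSC libraries 3 genes passed, *chs-2* (r = 0.68), *fks-1* (0.61) and *chs-4* (0.43). The difference between the series was not tested. With libraries centred on their medians only *chs-2* passed (r = 0.30).

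The markers taken singly gave other calls. Of the 40 relations of 8 genes with 5 markers, 32 passed over all libraries, 10 in JW and 17 in D_FGSC libraries (permutation tests adjusted over the 40). The share over all genes was not determined for single markers either. Since several members vary together, the 40 relations are not separate results. None of the 10 in JW libraries was with *eas* or *con-6*. With *con-10* they were those of *fks-1* (r = 0.44), *chs-4* (0.37), *chs-2* (0.37) and *chs-7* (0.33). With *fl*, which encodes a regulator of conidiation, they were those of *chs-2* (0.43), *chs-1* (0.38), *fks-1* (0.38) and *chs-4* (0.32), and with *con-8* those of *chs-2* (0.45) and *chs-1* (0.32). Adjusted permutation p in these 10 were 0.00300 to 0.0262. After the sum, and so mostly *eas*, was regressed out of the members, the 10 pairs of the group all passed, with a median r of 0.78. After all 5 markers were regressed out together, the 10 pairs had r of 0.64 to 0.92 and a median of 0.79, and all passed, whereas 4 of the 13 pairs with *chs-2* or *chs-6* passed in place of 9.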

How the data were processed

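Mycelial RNA of 112 strains was sequenced as 1 library per strain, and the authors deposited 1 table of RPKM. The submitters' processing notes name Bowtie 0.12.2. For the counting tool and the annotation release, nothing is given in the sources used here. Each strain has 1 culture, so strain, culture and library all contribute to the spread behind each p-value. The 8 genes, the gene lists and the tests were chosen with earlier results of these data known.

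Whole reads were recovered from the steps between RPKM values, within 0.001 of a read for 100% of the 9696 genes above 0, by code tested on simulated data. A gene with reads in 1 library only cannot be resolved in this way. Recovered lengths were multiples of 3 in 99.9% of genes, so they are called coding lengths. Every column name matched 1 strain (112 columns, 0 left unused). Totals of 4174767 to 30748165 reads limit the precision of *chs-2* and *chs-6*.

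RPKM are not counts, so levels were tested as log2(RPKM + 1) with limma 3.58.1 (R 4.3.3), a trend in the variance, a filter of a mean of at least 1 RPKM and Benjamini-Hochberg adjustment over all 7985 genes tested at 0.05. Correlations used two-sided permutation tests of 100000 resamples in Python 3.11.15 (numpy 2.4.6, pandas 2.3.3, scipy 1.17.1, matplotlib 3.10.9), and both pieces of code were tested on simulated data. Relations between members were adjusted over 28 pairs, and those with the total and with the marker sum over 8 genes each, and those with single markers over 40 relations. Correlations with all other genes carry no test.

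Genes named are the 8 members, the 3 genes most correlated with each among those with a mean of at least 10 RPKM, the genes beside each in locus order, those with the smallest p in each list, the conidiation markers, *act* and *bml*. *gs-1*, *wsc-1* and *myo2* were named in the correlation text after their values were seen. 1 gene of the list of regulators is not reported here. Gene names come from RefSeq's NC12 annotation, in which 9010 table rows matched a locus. *hex-1*, *mak-1*, *pkc-1*, *rlm-1*, *wsc-2*, *spa-1*, *myo-5* and the families *gh72*, *gh17*, *gh55* and *mwg* were not analysed here. The alternatives were other pseudocounts, filters, scalings, covariates, voom, each series alone, every column as a library, and leaving out 4 strains or libraries outside 15000000 to 27000000 reads. The long-gene score, the residuals after it and after the conidiation markers, the medians within each series, and leaving out JW262, FGSC 4483 and JW252 were added after the data were seen. The group of *chs-1*, *chs-4*, *chs-5*, *chs-7* and *fks-1* was also formed after their correlations were seen.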

Additional observations from a re-analysis of the deposited data

How the results depend on the processing

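No paired analysis was possible because the strain labels carry no replicate numbers shared between the series. None of the 8 synthase genes passed the threshold between the series under any of the 13 alternatives (*chs-2* and *chs-6* were not tested with a filter of 5 RPKM). The share of genes called across the table did depend on the setting. It was 2.24% in the fit as reported, 4.16% with quantile normalization, 3.83% without FGSC 2489, JW168, JW5 and JW7, 3.62% with each of the 112 columns as a library, 1.47% in voom and 0.363% with the log2 library total as a covariate. Among libraries of 15000000 to 27000000 reads (46 JW and 10 D_FGSC) it was 0 in limma, with 11.1% at an unadjusted p under 0.05. Small differences between the series changed sign in 4 cases, for *chs-7* with 112 columns (-0.0047), for *chs-2* at 15000000 to 27000000 reads (-0.13), and for *chs-5* (0.042) and *fks-1* (0.012) with the long-gene score as a covariate. The cause was not tested.

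The order of the levels was the same under the 4 alternatives planned and by the median in D_FGSC libraries, and differed by the median in JW libraries, where *chs-3* and *chs-5* changed places. Of 28 pairs of members, 24 passed as reported (median r 0.39), against 12 with median centring (0.16) and 12 with quantile normalization (0.17), and the median r was 0.57 in D_FGSC libraries alone. Pairs that changed sign had r near 0. With median centring these were *chs-2* with *chs-3* (-0.080), *chs-3* with *chs-6* (-0.083), *chs-4* with *chs-6* (-0.040) and *chs-6* with *chs-7* (-0.020). With quantile normalization the same pairs had -0.10, -0.097, -0.0039 and -0.0026, and in JW libraries *chs-4* with *chs-6* had -0.023. After all 5 conidiation markers *chs-2* with *chs-3* had -0.017 and *chs-3* with *chs-6* had -0.0055. With the library total, 2 genes passed as reported (*chs-1* and *chs-3*), 2 in JW libraries (*chs-1* and *chs-2*) and 1 in D_FGSC libraries (*fks-1*). Signs changed in JW libraries for *chs-2* (-0.30), *chs-6* (-0.082) and *fks-1* (-0.23) and in D_FGSC libraries for *chs-4* (0.078). With the conidiation markers 6 genes passed as reported, 0 in JW libraries (1 at an unadjusted p under 0.05), 3 in D_FGSC libraries and 1 with median centring, and *chs-5* changed sign in JW libraries (-0.014) and with median centring (-0.017). Counting error limits single low values of *chs-6* and *chs-2*, which rested on as few as 4 and 8 reads. It made up an estimated 6.48% and 2.69% of their variance between libraries.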
